A study of Mus musculus with 7899 samples.

Results

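In β cells of islets cultured with maternal serum, the prolactin receptor, insulin and members of the secretory, lipid-synthesis and p53-target groups were lower with the inhibitor A485 than with vehicle, and a smaller set of genes, the CBP gene among them, was higher. The calls of the prolactin receptor, both insulin genes and the CBP gene were each lost in at least 1 alternative fit. Several calls of secretory genes depended on how the reads were scaled. The comparison is A485 against vehicle in maternal serum, within the A485 culture experiment of a single-cell RNA study of mouse islets. Its members are the cells labelled as maternal serum with A485, replicates 1 and 2, and as maternal serum with vehicle, replicates 1 and 2. They number 196 of the 7897 single cells of the study.

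The study followed β cells through gestation in mice and also cultured islets in human serum. Islets of female C57BL/6J mice on a standard diet were picked by hand and kept for 4 days in medium with 20% human serum, about 40 islets per well, with the medium changed every 2 days. The A485 wells held 5 μM A485, and the vehicle wells held the solvent DMSO. The groups were maternal serum with A485 (48 and 48 cells), maternal serum with vehicle (51 and 49 cells), and the same pair in serum labelled normal. Islets were then dissociated, and sorted cells were read with Smart-seq3xpress, a plate method that sequences along whole transcripts. The sources used here do not give the age of the mice, the markers of the sort, the number of serum donors or the number of mice behind a replicate. The treatment acted on whole islets, and RNA was read in single cells sorted afterwards. The p-values below measure the spread between 2 libraries per group, labelled as biological replicates, which may share a serum batch.

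A485 is a small molecule that blocks the acetyltransferase activity of p300 and its paralog CBP, which are encoded by Ep300 and Crebbp. These coactivators are brought to enhancers by transcription factors such as CREB, p53, STAT5 and AP-1 and acetylate histones there. In pregnancy, β cells respond to prolactin and placental lactogen through the prolactin receptor and STAT5, and in mice they begin to make serotonin and to grow in number.

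Each library is the sum of its cells' reads. The sums were 39703295 and 37678900 reads with A485, against 42766063 and 55828413 reads with vehicle. The 2 insulin genes took a median of 36.4% and 37.9% of a cell's reads with A485, against 55.9% and 46.2% with vehicle. Values below are read counts scaled to a common library size (CPM) with the library sizes adjusted by trimmed means of M-values (TMM), whose factors were 1.33 and 1.25 with A485, against 0.876 and 1.02 with vehicle. The β-cell list of 10 genes held Ins2 and Iapp, and also Prlr, Ins1, Ero1lb and Crebbp, which were taken in because they came with the comparison. All 10 were read in every library and summed to 404574 and 419812 CPM of all reads with A485, against 579297 and 500319 CPM with vehicle. That sum includes both insulin genes. In single cells glucagon, somatostatin and the pancreatic polypeptides together took at most 3.09% of any cell's reads with A485 and at most 0.116% with vehicle. Summed α-cell markers were 1880 and 2243 CPM of all reads with A485, against 1801 and 1276 CPM with vehicle. Summed ductal markers were 514.5 and 494.8 CPM with A485, against 649.8 and 486.2 CPM with vehicle, with Sox9 at 0 in all 4 libraries. Summed acinar markers stayed at or below 0.292 CPM of all reads with A485 and 1.05 CPM with vehicle, with Cpb1, Pnlip, Try4, Prss2, Reg1 and Amy2a5 at 0 in all 4 libraries. Summed immune markers were 5.74 and 9.02 CPM with A485, against 14.4 and 47.9 CPM with vehicle, and Ptprc, Lyz2, Tyrobp, C1qb and Cd52 were at 0. Of the 9 α-cell markers Gc was called lower, and of the 9 immune markers C1qa; no marker of δ, pancreatic polypeptide, acinar, ductal, endothelial or stromal cells was called. The part of other cells' RNA in the results was not tested; with both insulin genes left out before scaling, 450 genes were called in place of the 447 given next.

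Of 13554 genes tested, 447 were called at a Benjamini-Hochberg adjusted p below 0.05 with the quasi-likelihood test of edgeR, or 3.3%. The called genes were 95 higher, 0.701% of those tested, and 352 lower, 2.6%. The higher genes had a median log2 fold change (A485 over vehicle) of 0.93, and 5 of them exceeded 4-fold. The lower genes had a median of -1.27, and 110 of them exceeded 4-fold. The median of all genes was -0.01. With total reads as the only scaling that median was 0.43, and 1885 genes were called higher and 240 lower, so the split between higher and lower calls depends on the scaling, and changes below are relative to the bulk of the genes. Without A485 replicate 1, 163 genes were called, and without A485 replicate 2, 221. Of the 83 genes named by rule many lost their call in each case, and none changed direction. Among the 83, Ep300, Tph1, Tph2, Acss2, Mafa, Ucn3 and Nptx2 had no call to lose. Of the called genes, 95 of 95 higher and 351 of 352 lower had no overlap between A485 and vehicle libraries. Without overlap, leaving out 1 library can hardly turn a direction, so the unchanged directions were close to fixed beforehand.

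**Figure D1:**
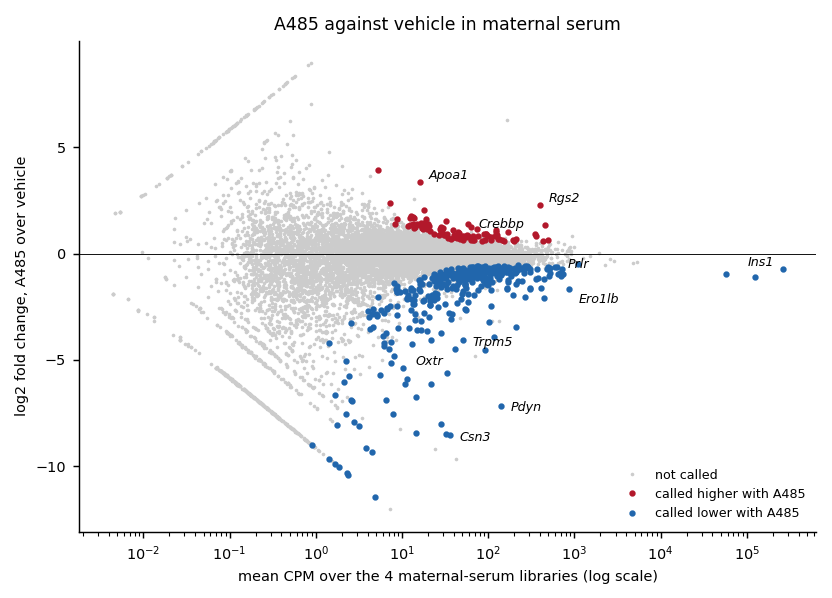
Each point is 1 of 13554 genes, with its mean CPM over the 4 maternal-serum libraries on a log axis and its log2 fold change, A485 over vehicle, on the vertical axis. The 95 genes called higher are red and the 352 called lower blue; Pdyn and Csn3 lie far below 0 at moderate levels, and Ins1 lies at the right end with a log2 fold change of -1.11.

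Prlr, the prolactin receptor (chromosome 15, 10177238 to 10349180, GRCm38), had 511 and 377 CPM with A485, against 931 and 778 CPM with vehicle. The A485 libraries lay below both vehicle libraries, and the log2 fold change was -0.94 ± 0.15 (SE), a 1.93-fold difference with an adjusted p of 0.00819. With total reads as the only scaling it was -0.48 with an adjusted p of 0.0664, and limma on the deposited normalized values gave -0.82 and 0.0582. Every cell had Prlr reads, and the median over cells, in CPM of a cell's own reads without TMM, was 576.3 and 467.6 with A485, against 663.4 and 642.8 with vehicle. The same gene carries the response to lactogens, so the window around one of its starts is shown. RefSeq lists 3 windows for Prlr (GRCm38.p6, 250 bases before to 50 after a start), and the one at chr15:10223656-10223955, plus strand, holds 1 match to the STAT-type motif TTCNNNGAA, written in capitals; the motif reads the same on both strands.
Prlr: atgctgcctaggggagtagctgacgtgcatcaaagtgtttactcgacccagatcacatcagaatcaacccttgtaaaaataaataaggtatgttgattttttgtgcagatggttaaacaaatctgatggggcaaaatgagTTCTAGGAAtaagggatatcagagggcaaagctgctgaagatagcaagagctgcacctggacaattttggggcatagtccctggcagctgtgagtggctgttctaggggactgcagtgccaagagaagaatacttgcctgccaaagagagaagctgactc
That motif occurs in 8.3% of the 32851 windows of all genes, so the match describes the letters and shows no binding.

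Ins1, the retroposed insulin gene of mice (chromosome 19, 52264297 to 52265476), had 81195 and 77148 CPM with A485, against 195755 and 146412 CPM with vehicle. Its log2 fold change was -1.11 ± 0.11 (SE; adjusted p = 0.000469), without overlap between the groups; it was -0.65 under total-reads scaling, and limma on the deposited normalized values ended the call (-1.10; adjusted p = 0.0943). Ins2, the other insulin gene, had 185354 and 212594 CPM with A485, against 388491 and 262686 CPM with vehicle, and fell by 0.71 on the log2 scale (adjusted p = 0.017). The counts of the 2 genes rest on how the authors' counting split reads between similar copies. The Ins2 call was lost without A485 replicate 1 (adjusted p = 0.105) and under total-reads scaling (-0.24; adjusted p = 0.0779), with limma (0.454) and in a fit of the 4 maternal-serum libraries alone (0.0852).

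Ero1lb, an oxidase of the endoplasmic reticulum (ER) that helps proinsulin form its disulfide bonds (chromosome 13, 12565874 to 12611396), had 442 and 400 CPM with A485, against 1438 and 1216 CPM with vehicle. It was 3.15-fold lower (log2 fold change -1.66 ± 0.15; adjusted p = 0.000186), with the groups far apart and reads in every cell. The median over cells, in CPM of a cell's own reads, was 537.6 and 440.7 with A485, against 974.8 and 882 with vehicle. Crebbp, which encodes CBP, had 76.1 and 81.8 CPM with A485, against 53.1 and 44 CPM with vehicle. Crebbp rose 1.63-fold (log2 0.70 ± 0.16; adjusted p = 0.0365) and the groups did not overlap. Its adjusted p was 0.108 without A485 replicate 1, 0.157 without A485 replicate 2, 0.162 without vehicle replicate 2, 0.077 with limma and 0.0615 in the fit of 4 libraries. Ep300, which encodes p300, had 48.9 and 43 CPM with A485, against 39.7 and 40.9 CPM with vehicle, a log2 fold change of 0.19 ± 0.15 that did not pass the test (adjusted p = 0.569), though it did under total-reads scaling (0.64; adjusted p = 0.0364).

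**Figure D2:**
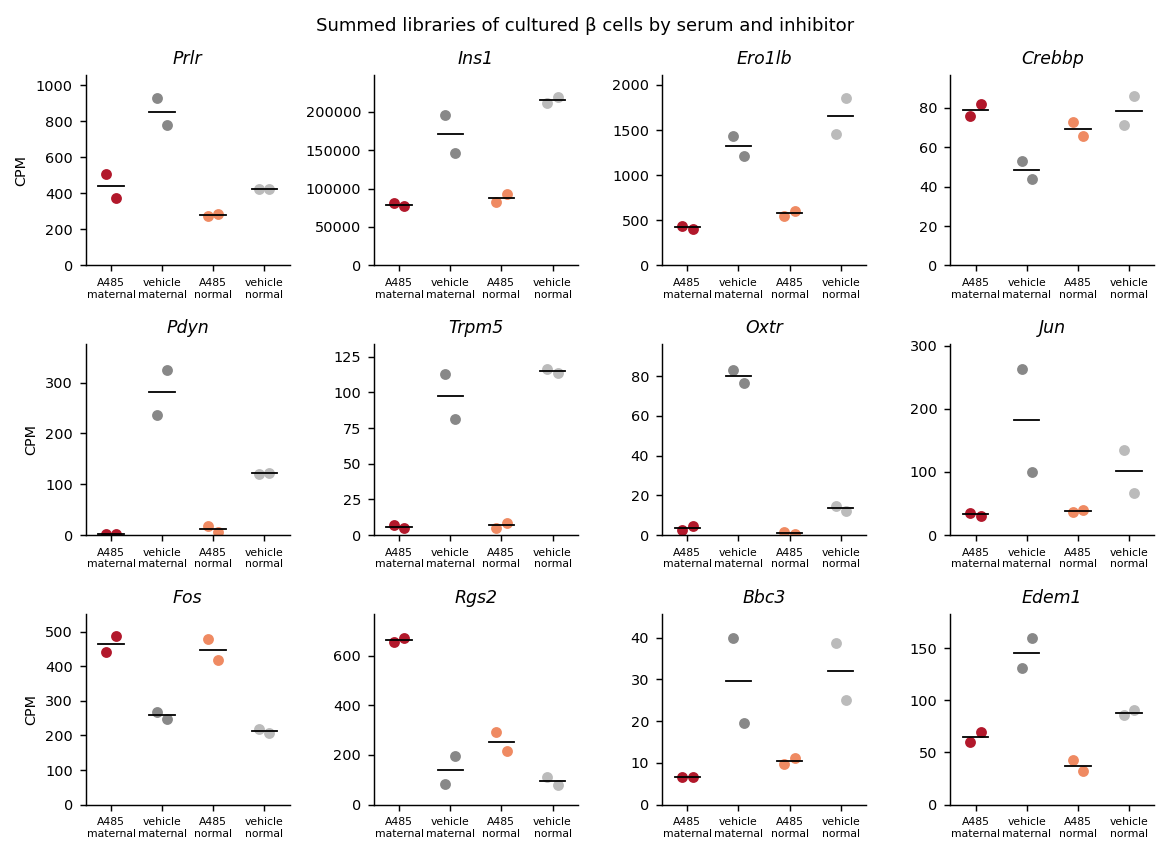
CPM of 12 genes in each summed library; a point is a library, a bar the mean of 2, and the groups run A485 then vehicle in maternal serum, then the same in normal serum. In maternal serum Fos, Rgs2 and Crebbp lie higher with A485 and the other 9 genes lower. No A485 library of maternal serum overlaps a vehicle library of that serum. All 12 genes were called there, and 95 of 95 higher and 351 of 352 lower called genes had no overlap, so this adds little to the calls.

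Of 22 genes of insulin, its processing and glucose sensing, 8 fell, 0 rose and 14 did not pass. That is 36.4% called, against 3.3% of all genes, with a median log2 fold change of -0.55 (-0.10 under total-reads scaling). Trpm5, a cation channel that takes part in glucose-stimulated depolarisation, had 6.8 and 4.79 CPM with A485, against 113.2 and 81.4 CPM with vehicle. It was 16.8-fold lower, with reads in 22 and 14 cells with A485, against 51 and 46 cells with vehicle (log2 -4.07 ± 0.28; adjusted p = 3.07e-05). Slc2a2, the glucose transporter GLUT2, had 90.9 and 74.3 CPM with A485, against 308 and 196 CPM with vehicle (log2 -1.61 ± 0.20; adjusted p = 0.00193). Iapp, which encodes the co-secreted peptide amylin, Vgf, a granule protein, and Sytl4, a granule-docking protein, also fell, by 0.94, 2.11 and 0.90 on the log2 scale, with Vgf at an adjusted p of 0.0524 without A485 replicate 1. Members that did not pass included the prohormone convertases Pcsk1 and Pcsk2 (-0.22 and -0.34) and the zinc transporter Slc30a8 (0.05). Ucn3, a maturity marker, had 412 and 314 CPM with A485, against 611 and 523 CPM with vehicle (log2 -0.64 ± 0.17; adjusted p = 0.0596); without vehicle replicate 2 the adjusted p was 0.0406.

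Of 23 transcription factors that define β cells, 2 fell and 0 rose (8.7% called, against 3.3% of all genes), and the median of -0.27 became 0.18 under total-reads scaling. Mlxipl, the carbohydrate-responsive factor ChREBP, had 98.5 and 64.7 CPM with A485, against 187.0 and 155.7 CPM with vehicle (log2 -1.07 ± 0.19; adjusted p = 0.0116; 0.0537 without A485 replicate 2 and 0.0597 under total-reads scaling). Mnx1 had 15.7 and 16.2 CPM with A485, against 42.9 and 29 CPM with vehicle (log2 -1.17 ± 0.23; adjusted p = 0.0201), a call lost without A485 replicate 1, A485 replicate 2 or vehicle replicate 1 (adjusted p = 0.114, 0.0873 and 0.129) and under total-reads scaling (0.0605). The log2 fold changes of Pdx1, Nkx6-1, Pax6, Neurod1 and Nkx2-2 were -0.61, -0.27, -0.10, 0.05 and 0.17, none called. Mafa was read at 2.23 and 1.69 CPM with A485, against 4.62 and 2.35 CPM with vehicle, too low to show a change of its size (log2 -0.83 ± 0.82; adjusted p = 0.664).

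In exocytosis and excitability, 2 of 22 genes rose and 1 fell (13.6% called, against 3.3% of all genes), with a median of 0.14. Vamp2, a SNARE of the granule, had 158.4 and 164.5 CPM with A485, against 97.5 and 104.3 CPM with vehicle (log2 0.68 ± 0.13; adjusted p = 0.0193). Snap25, its partner on the plasma membrane, rose by 0.70 (adjusted p = 0.0283). Syt13, an atypical synaptotagmin, had 298 and 239 CPM with A485, against 610 and 621 CPM with vehicle (log2 -1.20 ± 0.14; adjusted p = 0.00117). The Vamp2 call was lost without A485 replicate 1, A485 replicate 2 or vehicle replicate 1 (adjusted p = 0.0734, 0.0838 and 0.0943), and that of Snap25 without A485 replicate 2, vehicle replicate 1 or vehicle replicate 2 (0.161, 0.0931 and 0.0519).

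Of 22 lactogen-responsive and pregnancy-associated islet genes, 5 fell, 0 rose and 17 did not pass (22.7% called, against 3.3% of all genes). The median was -1.35, or -0.96 under total-reads scaling; 19 of the 22 were below 0. Oxtr, the oxytocin receptor, had 2.42 and 4.76 CPM with A485, against 83.3 and 76.6 CPM with vehicle. It was 22.3-fold lower (log2 -4.48 ± 0.47; adjusted p = 0.000637). Fmo1, a flavin monooxygenase, had 4.84 and 23.8 CPM with A485, against 202 and 237 CPM with vehicle (log2 -3.94 ± 0.52; adjusted p = 0.0027). Both genes were far below vehicle in each A485 library. Sftpd, a collectin, had 0.567 and 7.41 CPM with A485, against 27.2 and 77.8 CPM with vehicle, a call at an adjusted p of 0.0394 that was lost without vehicle replicate 2 (0.144). Neb, the nebulin gene, was the fifth, at 6.37 and 11.9 CPM with A485, against 21.6 and 48.8 CPM with vehicle. The serotonin-synthesis genes were low: Tph1 had 1.53 and 1.99 CPM with A485, against 12.8 and 5.48 CPM with vehicle (log2 -2.37 ± 0.82; adjusted p = 0.148). Its reads came from 4 and 3 cells with A485, against 14 and 11 cells with vehicle, and DESeq2 gave an adjusted p of 0.0342. Tph2 had 3.59 and 7.01 CPM with A485, against 7.71 and 16 CPM with vehicle (adjusted p = 0.374).

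The STAT5 feedback inhibitors Cish and Socs2, in the same list, had log2 fold changes of -0.20 and 0.05, not called. In the JAK-STAT pathway 1 of 22 genes fell and 0 rose, with a median of 0.07; the 4.55% called is near the 3.3% of all genes. That gene was Il6st, the shared gp130 receptor subunit of the interleukin-6 family, at 19.5 and 23.5 CPM with A485, against 42.9 and 114.9 CPM with vehicle (log2 -1.88 ± 0.37; adjusted p = 0.02). In vehicle replicate 2, 38.3% of its reads came from 1 cell, and the adjusted p was 0.0832 without that library, 0.118 without A485 replicate 1 and 0.0623 without A485 replicate 2.

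Among genes of acetylation, Crebbp and Hdac3 rose and Acly fell, 3 of 23 measured (13% called, against 3.3% of all genes), with a median of 0.15. Hdac3, a histone deacetylase, had 59.6 and 44.1 CPM with A485, against 24.1 and 32.2 CPM with vehicle (log2 0.88 ± 0.21; adjusted p = 0.0414; 0.289 without A485 replicate 1 and 0.237 without vehicle replicate 1). Acly, which makes cytosolic acetyl-CoA from citrate, had 481 and 422 CPM with A485, against 1012 and 870 CPM with vehicle (log2 -1.06 ± 0.14; adjusted p = 0.00274). Over 16 alternatives the log2 fold change of Acly ran from -1.16 to -0.60, and it stayed called under total-reads scaling (adjusted p = 0.0207). The alternatives that left out cells by read number or by other hormones removed 0 cells of maternal serum. Acss2, which makes acetyl-CoA from acetate, had 24.9 and 29.1 CPM with A485, against 17.8 and 19.8 CPM with vehicle; its log2 fold change of 0.52 ± 0.23 did not pass (adjusted p = 0.266), but passed under total-reads scaling (0.96; adjusted p = 0.0255). Of 22 partners of CBP and p300, 2 fell (9.09% called, against 3.3% of all genes). Cited2, which binds the CH1 domain of both proteins, had 32.5 and 20.4 CPM with A485, against 48.4 and 61.1 CPM with vehicle (log2 -1.05 ± 0.22; adjusted p = 0.0266; 0.156 without A485 replicate 2, 0.117 without vehicle replicate 2 and 0.12 under total-reads scaling). Atf1, a CREB-family factor, fell by 0.87 (adjusted p = 0.0388), with calls lost without A485 replicate 1 (0.185), A485 replicate 2 (0.143) or vehicle replicate 1 (0.229) and under total-reads scaling (0.197).

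**Figure D3:**
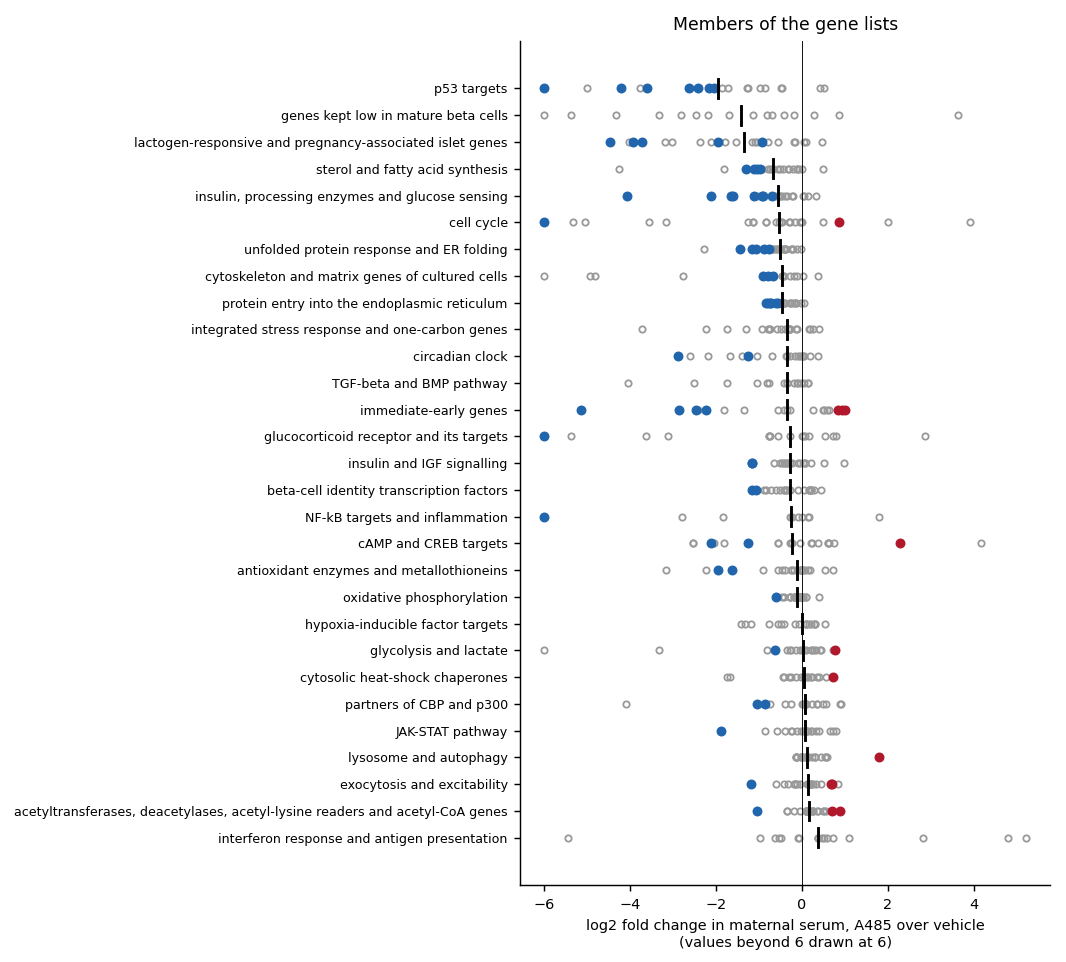
Log2 fold changes, A485 over vehicle in maternal serum, of the measured members of 29 gene lists; filled points were called (red higher, blue lower), open points were not, and a black bar is the list's median. p53 targets have the lowest median, -1.95, and immediate-early genes hold called members on both sides of 0.

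Immediate-early genes split. Of 19 measured, 3 rose and 4 fell (36.8% called, against 3.3% of all genes), with a median of -0.34 that became 0.11 under total-reads scaling. Fos, a partner in the AP-1 factor, had 441 and 488 CPM with A485, against 269 and 248 CPM with vehicle (log2 0.84 ± 0.13; adjusted p = 0.00661). Junb had 477 and 442 CPM with A485, against 281 and 199 CPM with vehicle, and Ier2 had 216.2 and 237.6 CPM, against 124.7 and 100 CPM; they rose by 0.94 and 1.01 on the log2 scale. Jun, the other classical AP-1 subunit, went the opposite way, with 34.9 and 30.5 CPM with A485, against 263 and 100 CPM with vehicle. It was 5.56-fold lower (log2 -2.47 ± 0.40; adjusted p = 0.00807), and 69.5% of its reads in vehicle replicate 1 came from 1 cell. With the highest cell of each library left out the log2 fold change of Jun was -1.65 (adjusted p = 0.000409). Ier5 had 4.7 and 2.08 CPM with A485, against 27.9 and 21.3 CPM with vehicle (adjusted p = 0.00625), with at most 8.8% of a vehicle library's reads in 1 cell. The log2 fold changes of Klf6 and Atf3 were -2.24 and -5.14 (adjusted p = 0.00819 and 0.0225); Klf6 was at 0.0515 without A485 replicate 2.

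Targets of cAMP and CREB did not move together: 1 of 21 rose and 2 fell (14.3% called, against 3.3% of all genes), with a median of -0.24 (0.19 under total-reads scaling). Rgs2, a regulator of G-protein signalling, had 656 and 671 CPM with A485, against 81.4 and 194 CPM with vehicle. It was 4.82-fold higher (log2 2.27 ± 0.32; adjusted p = 0.0041), and its reads were spread over 48 and 48 cells with A485 and 47 and 48 cells with vehicle. As Rgs2 was the abundant gene that rose most, its RefSeq window (chr1:144004100-144004399, minus strand) is printed, with 2 matches to the CRE half-site TGACG, on either strand, in capitals.
Rgs2: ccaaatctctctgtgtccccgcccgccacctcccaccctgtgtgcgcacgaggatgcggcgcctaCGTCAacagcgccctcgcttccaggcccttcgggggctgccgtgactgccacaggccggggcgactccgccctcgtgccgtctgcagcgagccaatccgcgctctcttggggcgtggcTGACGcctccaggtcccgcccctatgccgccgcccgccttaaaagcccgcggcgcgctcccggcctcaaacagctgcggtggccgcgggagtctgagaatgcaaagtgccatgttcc
The half-site occurs in 20.8% of all windows, and the full site TGACGTCA, which contains it, in 1.79%; the full site is not among the letters of this window. Vgf, already named, and the clock gene Per2 were the members that fell, Per2 with 8.73 and 9.78 CPM with A485, against 26.6 and 17.9 CPM with vehicle (adjusted p = 0.0326; 0.107 to 0.176 without either A485 library or vehicle replicate 1, and 0.0737 under total-reads scaling). The orphan receptors Nr4a1 and Nr4a2, often used as readouts of cAMP, had log2 fold changes of -0.05 and 0.60, not called.

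For the unfolded protein response and ER folding, 5 of 24 genes fell, 0 rose and 19 did not pass (20.8% called, against 3.3% of all genes). All 24 were below 0, and the median was -0.51. Edem1, which sends misfolded glycoproteins to degradation, had 59.9 and 69.1 CPM with A485, against 130 and 160 CPM with vehicle (log2 -1.17 ± 0.17; adjusted p = 0.00513). Dnajb9, a co-chaperone of BiP, had 105.8 and 131.6 CPM with A485, against 217.8 and 280.4 CPM with vehicle (log2 -1.07 ± 0.16; adjusted p = 0.00567). Manf, Sdf2l1 and Ern1, the gene of the stress sensor IRE1, fell by 0.88, 0.76 and 1.44. Without A485 replicate 1 the adjusted p was 0.0738 for Manf and 0.148 for Sdf2l1. Hspa5, which encodes BiP, and Xbp1 were not called, at -0.51 and -0.24. For protein entry into the ER, 6 of 24 fell, 0 rose and 18 did not pass (25% called), with a median of -0.47; the called members were Spcs3, Srp9, Sec61b, Ssr4, Sec61g and Srpr. Spcs3, a signal peptidase subunit, had 137.6 and 158.7 CPM with A485, against 253.8 and 280.3 CPM with vehicle (log2 -0.85 ± 0.14; adjusted p = 0.00929). Sec61b, of the translocation channel, had 247 and 299 CPM with A485, against 419 and 495 CPM with vehicle (log2 -0.74 ± 0.15; adjusted p = 0.0206). These calls were sensitive to scaling: under total-reads scaling the 2 list medians were -0.07 and -0.02, and Spcs3, Srp9, Sec61b, Ssr4, Manf and Sdf2l1 were not called. Without A485 replicate 1 the adjusted p was 0.0759 for Spcs3, 0.0853 for Srp9, 0.152 for Sec61b and 0.116 for Ssr4; Sec61b was at 0.0751 without vehicle replicate 2. In the integrated stress response 0 of 22 genes were called, where 3.3% of all genes were. The median was -0.36, or 0.07 under total-reads scaling.

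Targets of p53, the stress-activated tumour suppressor, had the lowest median of the 29 lists, -1.95 (-1.46 under total-reads scaling). Of 20 measured, 7 fell and 0 rose, 35% called against 3.3% of all genes. Bbc3, the pro-apoptotic PUMA, had 6.56 and 6.65 CPM with A485, against 39.9 and 19.5 CPM with vehicle (log2 -2.17 ± 0.35; adjusted p = 0.00794). Phlda3 had 6.35 and 6.84 CPM with A485, against 49.3 and 21.6 CPM with vehicle (adjusted p = 0.0127), and Tnfrsf10b, a death receptor, had 1.85 and 1.36 CPM with A485, against 11.7 and 8.22 CPM with vehicle (adjusted p = 0.0127). In each the A485 libraries lay together and below vehicle replicate 2, the lower vehicle library. Cells contributed unevenly: in vehicle replicate 1 the highest single cell held 49.9% of the reads of Bbc3, 65% of Phlda3 and 63% of Tnfrsf10b. With the highest cell of each library left out the log2 fold changes were -1.66, -1.65 and -2.23, with adjusted p of 0.00525, 0.015 and 0.0344, while Eda2r lost its call (-5.80; adjusted p = 0.0692). Without A485 replicate 1 the adjusted p was 0.0759 for Phlda3, 0.0509 for Tnfrsf10b, 0.0917 for Gtse1 and 0.124 for Eda2r, and without A485 replicate 2 it was 0.0545 for Phlda3, 0.0701 for Tnfrsf10b and 0.158 for Gtse1. Gtse1, Eda2r, Plk2 and Cdkn1a were the other members that fell. Eda2r was read in 1 and 2 cells with A485, against 3 and 7 cells with vehicle. Gtse1 was read in 3 and 1 cells with A485, against 7 and 10 cells with vehicle. In vehicle replicate 1, 98.5% of the Gtse1 reads came from 1 cell. Without the highest cell of each library Gtse1 was at -4.94 (adjusted p = 0.0434), and limma ended its call (-1.40, adjusted p = 0.383).

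Cdkn1a, which encodes the cell-cycle inhibitor p21 and was picked here after its values were seen, had 118.3 and 93.5 CPM with A485, against 635.2 and 234.6 CPM with vehicle. It was 4.1-fold lower (log2 -2.04 ± 0.44; adjusted p = 0.0293), and -1.34 (adjusted p = 0.0376) without the highest cell of each library, which held 65.7% of its reads in vehicle replicate 1. One RefSeq window of Cdkn1a (chr17:29090729-29091028, plus strand) holds 2 matches to the p53 half-site, in capitals; either strand was searched.
Cdkn1a: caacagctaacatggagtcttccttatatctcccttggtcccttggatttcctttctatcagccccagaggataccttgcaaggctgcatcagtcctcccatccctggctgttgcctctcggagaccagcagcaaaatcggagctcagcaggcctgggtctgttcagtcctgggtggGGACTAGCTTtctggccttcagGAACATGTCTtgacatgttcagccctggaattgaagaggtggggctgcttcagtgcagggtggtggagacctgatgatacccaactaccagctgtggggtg
A match to the half-site occurs in 8.36% of all windows. Members of the list that lay slightly above 0 were Sesn1 at 0.42 and Btg2, also an immediate-early gene, at 0.50, neither called. Of 25 cell-cycle genes 21 were below 0, with a median of -0.53 (-0.07 under total-reads scaling). Among them Ccnd3 rose (37.5 and 31.4 CPM with A485, against 20 and 17.7 CPM with vehicle, adjusted p = 0.0373). Of the 25, 1 fell (8% called, against 3.3% of all genes). That gene was Ccnb1, with 0 reads in both A485 libraries and 305 and 56 reads with vehicle, of which 1 cell of each vehicle library held 99.3% and 94.6%. The Ccnd3 call was lost on leaving out any of the 4 libraries (adjusted p = 0.0787 to 0.24).

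Of 24 genes of sterol and fatty acid synthesis, 4 fell, 0 rose and 20 did not pass (16.7% called, against 3.3% of all genes); 23 were below 0, with a median of -0.68 (-0.22 under total-reads scaling). Beside Acly the called genes were Scd2, a fatty acid desaturase, Srebf1, the lipogenic factor SREBP1, and Insig1, its retention partner in the ER. Scd2 had 14.2 and 15.1 CPM with A485, against 37.1 and 35 CPM with vehicle (log2 -1.30 ± 0.24; adjusted p = 0.0147). Srebf1 had 22.2 and 23.5 CPM with A485, against 51 and 38.6 CPM with vehicle, and Insig1 had 20.3 and 18 CPM, against 51.3 and 32.4 CPM; they fell by 0.97 and 1.13. The groups of all 3 were apart, but leaving out A485 replicate 1 gave adjusted p of 0.0884, 0.115 and 0.0889, and A485 replicate 2 gave 0.0572, 0.0749 and 0.123, for Scd2, Srebf1 and Insig1. Without vehicle replicate 1 Srebf1 was at 0.103 and Insig1 at 0.145, and under total-reads scaling they were at 0.0917 and 0.0723. In insulin and IGF signalling, Pik3r1, the regulatory subunit of PI3-kinase, and Igf1r, the IGF-1 receptor, fell (2 of 19, where 3.3% of all genes were called; median -0.27, or 0.17 under total-reads scaling). Pik3r1 had 45.4 and 35 CPM with A485, against 88.9 and 90.3 CPM with vehicle (adjusted p = 0.004). Igf1r had 43.4 and 47.3 CPM with A485, against 114.8 and 88.9 CPM with vehicle (adjusted p = 0.00899; 0.0642 without A485 replicate 1).

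Txnip, which encodes a glucose-induced inhibitor of thioredoxin, averaged 148.8 ± 47.8 CPM with A485 and 462.7 ± 125.4 CPM with vehicle (SD, n = 2 each), without overlap (adjusted p = 0.00881). With Hmox1, heme oxygenase 1, it made 2 of 22 antioxidant genes that fell (9.09% called, against 3.3% of all genes; median -0.12, or 0.30 under total-reads scaling); the log2 fold changes were -1.64 and -1.95. The keratins Krt8 and Krt18 and S100a11 were the 3 of 15 cytoskeleton and matrix genes of cultured cells that fell. They fell by 0.92, 0.80 and 0.67 (20% called, against 3.3% of all genes). Under total-reads scaling none of the 3 was called, at -0.47, -0.34 and -0.23. Glycolysis had Eno2 higher (0.77) and the pyruvate kinase gene Pkm lower (-0.62) among 20 genes. That is 10% called, against 3.3% of all genes, with a median of 0.02. Oxidative phosphorylation had 1 of 24 lower (4.17%, near the 3.3% of all genes), Uqcrq (-0.60; list median -0.11, or 0.34 under total-reads scaling). Under total-reads scaling Pkm and Uqcrq were at -0.18 and -0.16, not called (adjusted p = 0.405 and 0.488). The clock list had 2 of 19 lower (all genes, 3.3% called), Dbp (-2.88) and Per2 (median -0.35, or 0.14 under total-reads scaling). Dnajb1 (0.71) was the 1 of 18 heat-shock chaperones that rose (5.56%, near the 3.3% of all genes). Lcn2, lipocalin 2, was the 1 of 12 NF-κB (8.33%) and 1 of 17 glucocorticoid genes (5.88%) that fell, where 3.3% of all genes were called. Lcn2 had 0.113 and 0.254 CPM with A485, against 0.187 and 130 CPM with vehicle. Without vehicle replicate 2 its log2 fold change was -0.02. Leaving out A485 replicate 1 ended the calls of Hmox1, Krt8, Krt18, S100a11, Eno2, Pkm, Uqcrq, Dbp and Dnajb1, with adjusted p of 0.0758 to 0.27. None of 18 hypoxia, 16 TGF-β, 18 interferon or 16 disallowed genes (kept low in mature β cells) was called. With 3.3% of all genes called, 0 calls in lists of this size is near that share. The list medians were 0.00, -0.35, 0.37 and -1.43, or 0.44, 0.10, 0.83 and -0.96 under total-reads scaling. Of the disallowed genes, most of them read at a few CPM or less, 13 of 16 were below 0.

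The 10 called genes with the lowest fold changes at a mean of 10 CPM or more and without overlap between the groups were Csn3, Saa1, Serpina3n, Pdyn, Crip2, Fga, Gtse1, Cox6a2, Fgg and Col6a3. Pdyn, which encodes the opioid precursor prodynorphin (chromosome 2, 129686565 to 129699844), had 1.7 and 2.22 CPM with A485, against 236 and 326 CPM with vehicle. It had the lowest adjusted p of all genes (log2 -7.16 ± 0.45; adjusted p = 2.32e-05), with reads in 25 and 16 cells, against 37 and 43 cells. Csn3, κ-casein, a milk protein, had 0.151 and 0.233 CPM with A485, against 89.1 and 55.3 CPM with vehicle (log2 -8.54 ± 0.86; adjusted p = 0.000469), with reads of 4 and 6 cells, against 31 and 22 cells. Cox6a2, a muscle-type subunit of cytochrome c oxidase, had 0.378 and 0.381 CPM with A485, against 13.9 and 31.5 CPM with vehicle (adjusted p = 0.000307). Col6a3, a collagen VI chain, had 0.189 and 0.783 CPM with A485, against 23.3 and 16.6 CPM with vehicle (adjusted p = 0.00819). These 4 genes were read in 22 or more cells of each vehicle library.

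The acute-phase genes among them behaved differently. Saa1 had 0.0756 and 0.0847 CPM with A485, against 0.56 and 57.6 CPM with vehicle, and 98.7% of the reads of vehicle replicate 2 came from 1 cell. The same library's highest cell held 98.4% of the reads of Fga, 97.4% of Fgg and 63.2% of Serpina3n; for Crip2, in vehicle replicate 1, it held 97.2%. Without the highest cell of each library the adjusted p was 0.216 for Saa1, 0.576 for Fga, 0.26 for Fgg and 0.0935 for Crip2, and Serpina3n stayed called at 0.0123. Leaving out vehicle replicate 2 gave adjusted p of 0.686 for Saa1, 0.493 for Fga, 0.228 for Fgg and 0.392 for Serpina3n, and Crip2 was at 0.35 without vehicle replicate 1. Over the whole comparison 25 of the 447 called genes, all of them lower, had more than 50% of the vehicle reads in 1 cell; their median log2 fold change was -6.88, against -1.17 for the other lower genes. Saa1 and Serpina3n belong to gene families whose copies can share reads.

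Apoa1, Rgs2, Slc16a11, Atp1b2, Haus7, Sat2, Cntnap2, Pip5k1c and Nat14 were among the 10 called genes with the highest fold changes under the same limits, and of these Rgs2 alone exceeded 100 CPM. Slc16a11, a monocarboxylate transporter, had 29.2 and 29 CPM with A485, against 8.38 and 5.81 CPM with vehicle (log2 2.04 ± 0.32; adjusted p = 0.00726). Pip5k1c, a phosphoinositide kinase, had 46.2 and 48.6 CPM with A485, against 14.9 and 18.3 CPM with vehicle (log2 1.51 ± 0.18; adjusted p = 0.00134). Atp1b2, a sodium pump subunit, had 20.3 and 21 CPM with A485, against 6.99 and 5.53 CPM with vehicle (adjusted p = 0.00617). The A485 libraries of these 3 genes were nearly equal and lay well above vehicle. Apoa1, the main apolipoprotein of high-density lipoprotein, had 10.9 and 47.6 CPM with A485, against 3.1 and 2.69 CPM with vehicle (adjusted p = 0.0153), and lost its call without A485 replicate 2 (0.171). Cntnap2, Haus7, Sat2 and Nat14 rose by 1.62, 1.66, 1.65 and 1.46 on the log2 scale. Without A485 replicate 1 the adjusted p was 0.126 for Haus7, 0.0545 for Sat2 and 0.0545 for Nat14, and without A485 replicate 2 it was 0.0855 for Sat2. Without vehicle replicate 1 it was 0.0941 for Haus7 and 0.0705 for Sat2.

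In normal serum A485 was tested on 188 other cells, with 349 genes called (2.57%), 78 higher and 271 lower. Of the genes called in maternal serum 177 were also called in normal serum, which is 39.6% of the maternal-serum calls and 50.7% of the normal-serum calls, and all 177 had the same direction. Among the maternal-serum calls, 90 of the 95 higher genes were above 0 in normal serum and 346 of the 352 lower genes below 0. Trpm5 had 5.04 and 8.54 CPM with A485 in normal serum, against 116.2 and 113.8 CPM with vehicle. Pdyn had 17.9 and 6.05 CPM, against 120.7 and 122.3 CPM. Ero1lb had 551 and 604 CPM, against 1452 and 1850 CPM. The log2 fold changes in normal serum were -4.09 for Trpm5, -3.33 for Pdyn and -1.51 for Ero1lb, each called. Prlr had 273 and 286 CPM with A485 in normal serum, against 427 and 425 CPM with vehicle (log2 -0.61; adjusted p = 0.0598). The median Prlr level over cells, in CPM of a cell's own reads without TMM, had the other order. It was 305.9 and 297.7 CPM with A485 in normal serum, against 219.2 and 237 CPM with vehicle. These medians differ from the summed values in scaling as well as in pooling. For Crebbp the normal-serum values were 72.7 and 65.6 CPM with A485, against 71.3 and 86 CPM with vehicle (-0.19, adjusted p = 0.597). Its medians over cells, without TMM, had the other order, at 81.27 and 53.66 with A485 in normal serum, against 51.94 and 48.81 with vehicle. The difference between the sera of 0.89 for Crebbp did not pass (adjusted p = 0.98). Txnip had 199 and 165 CPM with A485 in normal serum, against 237.0 and 144.1 CPM with vehicle, overlapping groups, and its difference between the sera of -1.57 did not pass either (adjusted p = 0.98).

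The difference of the A485 effects between the sera was called for 1 gene of 13554 (0.00738%), with 633 genes at an unadjusted p below 0.05. That gene was Nptx2, neuronal pentraxin 2. It had 15.8 and 33.7 CPM with A485 in maternal serum, against 42.7 and 78.3 CPM with vehicle, and 1.89 and 1.87 CPM with A485 in normal serum, against 108.1 and 79.2 CPM with vehicle. The effect in maternal serum minus that in normal serum was 4.34 on the log2 scale (adjusted p = 0.045). Nptx2 was not called without either A485 library of normal serum, where another gene was, nor with DESeq2 size factors, with both insulin genes left out or with limma. The maternal-serum fold change alone was not called (-1.29 ± 0.34; adjusted p = 0.0644; 0.0195 without A485 replicate 2 and 0.00521 without vehicle replicate 1), while that in normal serum was (-5.63; adjusted p = 0.000174). A single cell held 45.5% and 57.8% of its reads in the A485 libraries of maternal serum, against 52.4% and 26.2% with vehicle.

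**Figure D4:**
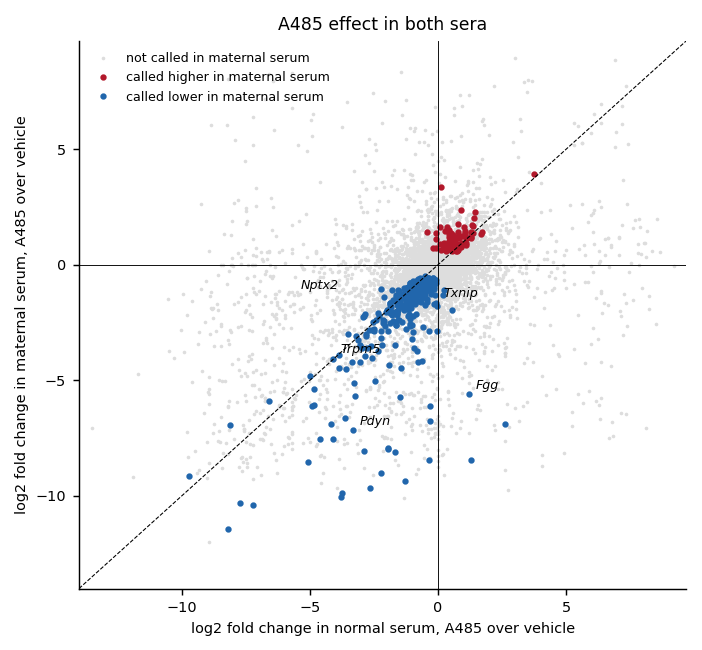
Log2 fold change, A485 over vehicle, of each gene in normal serum (horizontal) and in maternal serum (vertical); coloured genes were called in maternal serum, red higher and blue lower, and the dashed line marks equal effects. Of the blue genes 346 of 352 lie left of 0 and of the red 90 of 95 right of it; Fgg lies to the right of 0 among the lower genes.

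The vehicle libraries also show what maternal serum did without the inhibitor. They are the same libraries as in the A485 comparison, so values are given side by side only. With vehicle, 89 genes (0.657%) were called between maternal and normal serum, 70 higher and 19 lower. Prlr had 931 and 778 CPM in maternal serum with vehicle, against 427 and 425 CPM in normal serum with vehicle; with A485 in maternal serum it had 511 and 377 CPM. Fmo1 had 202 and 237 CPM in maternal serum with vehicle, against 21.6 and 19.3 CPM in normal serum, and 4.84 and 23.8 CPM with A485 in maternal serum. Oxtr had 83.3 and 76.6 CPM in maternal serum with vehicle, against 13.4 ± 1.52 CPM in normal serum (SD, n = 2), and 2.42 and 4.76 CPM with A485 in maternal serum. With A485 in normal serum Prlr had 273 and 286 CPM, Fmo1 2.85 and 2.8 CPM and Oxtr 1.46 and 0.267 CPM. Fmo1 and Oxtr thus also fell with A485 in normal serum (log2 -2.85 and -3.87, edgeR adjusted p = 0.0237 and 0.00422). For Prlr, Fmo1 and Oxtr the difference of the A485 effects between the sera did not pass (edgeR adjusted p = 0.98, 0.98 and 0.988). Sftpd was at 0.399 and 0.159 CPM with vehicle in normal serum, below both of its A485 values in maternal serum.

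Libraries that share no cells with this comparison were used to read the same genes. In the nifuroxazide culture, where nifuroxazide, an inhibitor of STAT3 signalling, was given at 20 μM, the vehicle cells of maternal against normal serum had 80 genes called higher and 58 lower, together 1.02%. Of its 80 higher genes 24 fell with A485 and 0 rose, which is 30% of that list and 6.82% of the 352 lower genes, against 2.6% of all genes that fell and 0.701% that rose, and the median A485 log2 fold change of the 80 was -1.10. Of its 58 lower genes 21 also fell with A485 and 1 rose (36.2% of the list, 5.97% of the lower genes), with a median of -0.66. The median of all genes was -0.01. The higher genes that fell included Prlr, Sftpd, Neb, Cited2 and Ern1, and the lower genes that fell included Ero1lb, Txnip, Scd2 and C1qa. Nifuroxazide itself, against vehicle in maternal serum, had 94 genes called (0.697%). Of its 48 lower genes 18 fell with A485 and 1 rose (37.5% of the list, 5.11% of the lower genes; median -1.17), Prlr, Neb, Txnip and Ern1 among those that fell; the gene that rose was Rgs2. Of its 45 measured higher genes 7 fell with A485 and 0 rose, with a median of -0.24, or 0.18 under total-reads scaling.

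Gestation gives a comparison outside culture. Between G14.5 (mid-gestation; 3 libraries) and G0 (the start; 2 libraries), 617 genes were called (4.65%). Of 398 measured genes higher at G14.5, 57 fell with A485 in maternal serum and 1 rose, which is 14.3% of that list and 16.2% of the 352 lower genes, against 2.6% of all genes. Their median A485 log2 fold change was -0.45, and -0.02 under total-reads scaling, where all genes had a median of 0.43. They included Prlr, Oxtr, Fmo1, Sftpd, Neb, Txnip and Cox6a2, and the ER genes Edem1, Manf, Sdf2l1, Spcs3, Sec61b and Ssr4. Of 211 genes lower at G14.5, 13 rose and 11 fell with A485 (6.16% and 5.21% of the list, against 0.701% and 2.6% of all genes), with a median of 0.18; Apoa1, Slc16a11, Cntnap2 and Pip5k1c were among those that rose, and Gc, Mlxipl and Srebf1 among those that fell. Prlr itself was 1.96 log2 units higher at G14.5 than at G0 (adjusted p = 6.45e-06), and Fmo1 4.59 units. Loss of p300 at G14.5 could not be read in the same way, since knockout against wild type had 0 of 13475 genes called with edgeR, with 1333 at an unadjusted p below 0.05 and a lowest adjusted p of 0.0582.

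**Figure D5:**
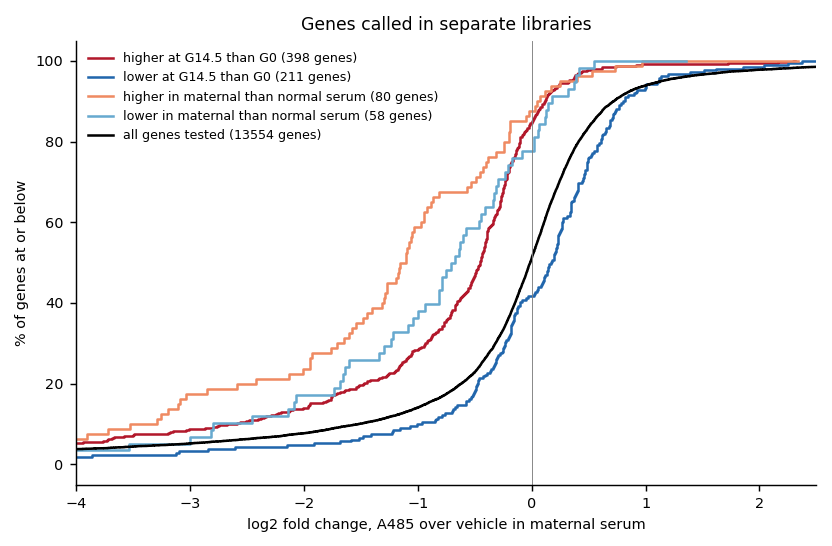
Cumulative share of genes, in percent, at or below a given log2 fold change, A485 over vehicle in maternal serum, for genes called in libraries of other cells: G14.5 against G0, and maternal against normal serum in the vehicle cells of the nifuroxazide culture. The axis is drawn from -4 to 2.5, and the curves of the genes higher at G14.5 and of both serum lists lie left of the black curve of all 13554 genes, with medians of -0.45, -1.10 and -0.66.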

How the data were processed

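Single β cells from cultured mouse islets were read with Smart-seq3xpress, which gives no droplet barcodes. The authors deposited counts of reads per gene and cell; the submitters' processing notes list Cell Ranger 3.1.0, featureCounts 2.0.1 and Trimmomatic 0.39, with GRCm38 (mm10). The sources used here do not give the aligner, the annotation, strand handling or any removal of duplicate reads, so reads cannot be taken as independent molecules. The deposited normalized values, another unit made by the authors, were used only for an alternative with limma on log2(value + 1).

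Counts of all cells of 1 group and replicate were added up. Genes passing filterByExpr (minimum count 10) were fitted in 1 model over the 8 libraries of the A485 table with TMM scaling and edgeR 4.0.16 (glmQLFit, glmQLFTest; R 4.3.3), with Benjamini-Hochberg adjustment over all genes tested and calls at 0.05. The gestation, p300 and nifuroxazide tables each had a model of their own. The SE is the log2 fold change divided by the root of F. Summed markers are CPM of all reads. Before use the test was run on counts simulated from the model's own spread, with changes set in well-read genes only. Such counts cannot show how the test treats genes whose reads come mostly from 1 cell. Gene coordinates are those of GENCODE vM21 (GRCm38). DESeq2 1.42.0 and limma 3.58.1 were alternatives, as were other scalings, filters and cell sets, each library left out, and 2 alternatives chosen after seeing the data (total reads as the only scaling, and the highest cell of each gene and library left out).

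The comparison, the 29 gene lists and the genes of interest were chosen with earlier results of these data known. Named genes are Prlr, Ins1, Ero1lb, Crebbp, Ep300, Ins2, Tph1, Tph2, Acss2, Mafa and Ucn3, the 10 called genes highest and the 10 lowest at a mean of 10 CPM or more without overlap, up to 4 called members per list with the lowest adjusted p, and genes called in the difference between the sera; Gc, C1qa, Atf3, Junb, Ier2, Neb, Cdkn1a and other list members were named after their values were seen. Some genes that the rule names are not reported here. Replicates of a group differed by more than counting noise. Summed reads alone do not separate fewer cells expressing a gene from less RNA per cell; numbers of cells with a read, or medians over cells, stand beside some genes.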

Additional observations from a re-analysis of the deposited data

Results flagged for a closer look

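Nptx2 was the gene for which the effect of A485 differed between the sera by a test of the difference itself. The log2 fold change, A485 over vehicle, in maternal serum minus that in normal serum was 4.34 (edgeR, adjusted p = 0.045), from -1.29 in maternal and -5.63 in normal serum. Nptx2 was not called in this test without A485 replicate 1 or A485 replicate 2 of normal serum, with DESeq2 size factors, with Ins1 and Ins2 left out or with limma. The difference rests on reads in 13 and 23 cells with A485 and 26 and 30 cells with vehicle in maternal serum. With the highest cell of each gene and library left out, Nptx2 stayed called, as 1 of the 4 genes then called. The part that other single cells play in the difference was not tested.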

How the results depend on the processing

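In maternal serum 447 genes were called. That count was 287 in a fit of the 4 maternal-serum libraries alone, 1071 with the DESeq2 Wald test, 1206 with no low-count filter and 2125 with total reads as the only scaling, and ranged from 163 to 404 on leaving out 1 library. With DESeq2 446 of the 447 were also called, and under total-reads scaling 276. With limma 302 genes were called, 225 of the 447 among them, and the fit of 4 libraries shared 266. The remaining alternatives gave 432 to 642. Of the 83 named genes, Ep300, Tph1, Tph2, Acss2, Mafa, Ucn3 and Nptx2 were not called in the main fit and had no call to lose. No alternative reversed a direction, which was close to fixed where the groups did not overlap and a library was left out. Calls of named genes were lost for 32 with limma, Ins1 and Crebbp among them, and for 27 in the fit of 4 libraries. They were lost for 20 with total reads and for 5 without the highest cells. Leaving out 1 maternal-serum library ended 17 to 43 of their calls. DESeq2, its size factors and the replicate block ended none.

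The labels do not say whether same-numbered replicates were paired. The correlations of same-numbered deviations ran from -0.082 to 0.175 over 6 pairs of groups, and with 2 replicates per group they cannot settle it. With the replicate block 629 genes were called in maternal serum, and Ucn3 and Nptx2 passed (adjusted p = 0.0389 and 0.0277). The difference between the sera, 1 gene, became 4 with the replicate block, 11 with DESeq2, 0 with edgeR on DESeq2 size factors, 0 with edgeR without Ins1 and Ins2, 79 with no filter, 0 with limma, 2 with total reads, 4 without the highest cells and 1 to 21 without 1 library. The 1 gene called without either A485 library of normal serum was not Nptx2. The share of genes called between maternal and normal serum with vehicle, 0.657%, became 1% with the replicate block, 2.61% with DESeq2, 2.97% with no filter, 0.332% with limma, 6.04% with total reads and 1.23% without the highest cells. The causes were not tested. Genes under about 10 CPM rest on few cells, which limits what 2 libraries can show.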
